A study of Mus musculus with 2 samples.

Results

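Erythroblastic islands are the niches in which red blood cells mature: a central macrophage is ringed by erythroblasts, holds them by adhesion molecules and takes up the nuclei they expel. The account here follows EP300 at 9 genes of that macrophage in mouse fetal liver: Siglec1, Vcam1, Maea, Adgre1, Csf1r, Mertk, Dnase2a, Cd163 and Cd68. They were chosen by name for their known roles, by a rule that uses no measured value though earlier results of these data were known, from the 21755 protein-coding genes of the GENCODE vM21 annotation on the autosomes and X. EP300 is an acetyltransferase and coactivator that transcription factors bring to enhancers and promoters, so a peak marks a place where such a complex was captured. In the fetal liver, island macrophages live among far more numerous erythroid cells, beside hepatocytes and endothelium.

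The data are 2 ChIP-seq libraries made with an EP300 antibody from liver of B6NCrl embryos of mixed sex at 14.5 days. Each came from pulverized tissue of several pooled dissections. Both belong to 1 group, with no other genotype, treatment or age, and they share a biosample label, so differences between them may be technical. A peak in such bulk tissue does not say in which cells EP300 was bound, and few macrophages with strong binding and many with weak binding cannot be told apart.

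The deposited lists hold 300000 peaks per library and as many for both libraries pooled. Shorter lists filtered for reproducibility, called optimal (17055 peaks) and conservative (15728 peaks), were deposited too. A peak was given to a gene when its summit lay within 50 kb of any of that gene's transcription start sites (TSSs). Peak signal, as the authors gave it, serves here for description and for ranks inside 1 list, where rank 1 is the strongest. Optimal signals ran from 5.20 to 570.3 with a median of 38.5. Read totals are not given, so depth is unknown. All positions are on mm10 (GRCm38), counted from 1; negative distances are upstream of the nearest TSS of the named gene.

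EP300 was found near the island macrophage genes about as often as near any coding gene. Of the 9 genes, 5 had an optimal peak within 50 kb (55.6%), against 53.7% of all coding genes (11680 of 21755), so the count says nothing particular about them. These 5 were Siglec1 with 4 peaks, Dnase2a with 5, Cd68 with 3, and Maea and Csf1r with 1 each. The Csf1r peak was within 50 kb of an internal TSS but not of the start of the gene. Adgre1, Vcam1, Cd163 and Mertk had none. Of the 14 peaks, 4 were nearer to the TSS of the island gene than to that of any other coding gene, 3 were nearest to the erythroid gene Klf1, and 7 were nearest to some other gene. The 4 peaks belonged to 3 genes, Siglec1, Maea and Dnase2a, which is 33.3% of the 9 against 29.8% of all coding genes that were nearest to an optimal peak.

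The sequences that carry these results are printed here from the reference genome, each on the plus strand from 5′ to 3′ and reaching at most 100 bp to either side of a summit. Capitals mark 3 motifs found on either strand: the GATA motif (GATA with A or T before it and A or G after it) bound by GATA1 and its relatives, GAGGAA, a core of sites for the macrophage factor PU.1 and other ETS factors, and GAAA repeated after a gap of 2 bases, a core of sites for interferon regulatory factors (IRFs). The first pair shows the optimal peak nearest to Siglec1 beside the strongest optimal peak in its window. The next shows the peak inside Maea. The following pair sets the strongest peak in the Dnase2a window, which lies by Klf1, beside the peak at the TSS of Dnase2a. The last pair shows peaks outside the optimal list with GAGGAA, near Siglec1 and Vcam1.
Siglec1, 9845 bp upstream, chr2:131096510-131096710: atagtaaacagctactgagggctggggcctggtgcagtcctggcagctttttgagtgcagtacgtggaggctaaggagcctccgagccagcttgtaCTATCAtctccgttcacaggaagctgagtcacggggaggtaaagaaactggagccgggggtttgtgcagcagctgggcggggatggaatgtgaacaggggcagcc
Siglec1, 49242 bp upstream, chr2:131135907-131136107: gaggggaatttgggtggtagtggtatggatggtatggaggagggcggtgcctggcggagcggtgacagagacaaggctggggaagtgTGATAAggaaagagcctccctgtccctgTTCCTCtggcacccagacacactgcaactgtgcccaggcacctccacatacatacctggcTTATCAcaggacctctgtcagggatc
Maea, 8058 bp downstream, chr5:33344143-33344343: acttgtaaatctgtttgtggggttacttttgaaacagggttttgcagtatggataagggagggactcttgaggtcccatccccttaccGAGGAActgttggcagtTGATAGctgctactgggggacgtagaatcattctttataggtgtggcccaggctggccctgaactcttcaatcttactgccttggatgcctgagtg
Klf1 side of the Dnase2a window, 7266 bp upstream of Dnase2a, chr8:84901194-84901394: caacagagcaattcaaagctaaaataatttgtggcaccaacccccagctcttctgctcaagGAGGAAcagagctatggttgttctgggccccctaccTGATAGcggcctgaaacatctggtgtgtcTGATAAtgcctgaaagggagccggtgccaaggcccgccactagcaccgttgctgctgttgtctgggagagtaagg
Dnase2a, 96 bp upstream, chr8:84908364-84908559: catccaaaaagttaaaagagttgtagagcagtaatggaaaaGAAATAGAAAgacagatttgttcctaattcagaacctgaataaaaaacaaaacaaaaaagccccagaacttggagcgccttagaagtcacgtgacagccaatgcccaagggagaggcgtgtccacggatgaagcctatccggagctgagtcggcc
Siglec1, 8310 bp upstream, pooled list, chr2:131094975-131095175: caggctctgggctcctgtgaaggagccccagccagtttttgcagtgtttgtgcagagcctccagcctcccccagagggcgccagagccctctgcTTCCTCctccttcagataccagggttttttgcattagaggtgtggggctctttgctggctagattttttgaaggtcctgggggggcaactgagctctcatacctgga
Vcam1, 36796 bp upstream, pooled list, chr3:116166384-116166584: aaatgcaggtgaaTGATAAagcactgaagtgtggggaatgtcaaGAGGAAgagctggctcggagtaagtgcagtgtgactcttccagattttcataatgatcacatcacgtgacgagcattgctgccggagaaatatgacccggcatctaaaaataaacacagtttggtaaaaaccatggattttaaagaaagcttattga

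**Figure D1:**
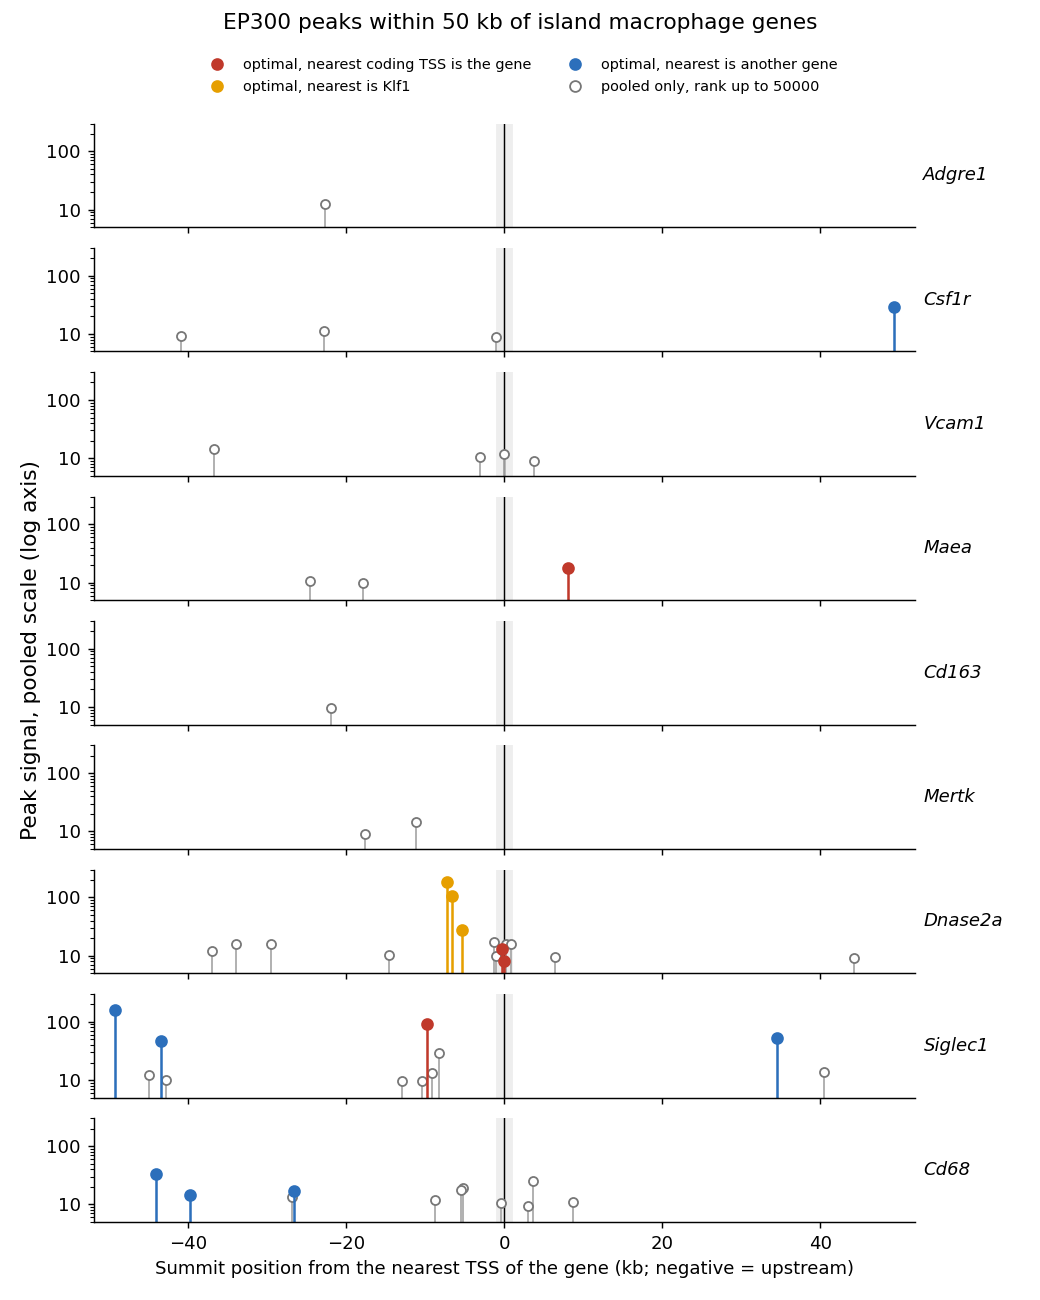
Peaks around the 9 genes, with 1 row per gene; the x axis is the distance of each summit from the nearest TSS in kb, on the gene's strand, and marks distinguish optimal peaks by their nearest gene from further peaks of the pooled list. Optimal peaks stand in the rows of 5 genes, those of Dnase2a include the 3 nearest to Klf1, and the rows of Adgre1, Vcam1, Cd163 and Mertk hold pooled peaks alone.

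Among the adhesion and surface receptors, Siglec1 had the strongest optimal peak nearest to its own TSS. Siglec1 (chr2:131069220-131086765, minus strand) encodes sialoadhesin, a sialic acid binding lectin on island macrophages. The peak at chr2:131096440-131096779 lay 9845 bp upstream in intergenic sequence, with a signal of 92.1 and optimal rank 3711. It ranked 3778 in replicate 1 and 4046 in replicate 2, so both libraries placed it alike. In the sequence printed for it, the GATA motif stood 1 bp from the summit and an AP-1 motif (TGANTCA), of the FOS and JUN factors, 23 bp from it.

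The other 3 optimal peaks in the Siglec1 window lay nearer to other genes. The one 49242 bp upstream, at chr2:131135897-131136112 in an intron of Hspa12b, was the strongest at 160.4 (optimal rank 1862) and ranked 1723 in replicate 1 and 2086 in replicate 2. Its summit was 2510 bp from a TSS of Gm11037. The one 43406 bp upstream, with a signal of 47.0, lay in Hspa12b, a gene of the HSP70 family, and the one 34494 bp downstream, of signal 51.9, fell in an intron of Adam33, of a metalloprotease family. The peak 43406 bp upstream ranked 6722 in replicate 1 and 6261 in replicate 2. The Adam33 peak ranked 6832 in replicate 1 and 7190 in replicate 2. All 4 peaks were above the median optimal signal and were in the conservative list, and each held a GATA motif.

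Siglec1 also had 7 further peaks among those ranked up to 50000 in the pooled list. The strongest, 8310 bp upstream at chr2:131094905-131095244, had a signal of 28.6 and pooled rank 11101, and was in the conservative list though not in the optimal one. It ranked 15339 in replicate 1 and 12834 in replicate 2. As printed, it held GAGGAA 3 bp from the summit and no GATA motif, while the optimal peak 9845 bp upstream held GATA and no GAGGAA.

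Vcam1 (chr3:116109949-116129688, minus strand), the adhesion receptor that holds erythroblasts through their alpha4 beta1 integrin, had its nearest optimal peak 181695 bp away, in an intron of Cdc14a. At or below that distance lay 76.4% of coding genes, the highest share of the 9 genes. No other coding gene had a TSS within 50 kb of Vcam1. Its window held 4 further pooled peaks. One lay 38 bp from the TSS, with a signal of 11.6 and pooled rank 26336; it ranked 21482 in replicate 1 and had no summit within 100 bp in replicate 2. The strongest, 36796 bp upstream, had a signal of 14.3 and pooled rank 20371, and its ranks were far apart, at 17254 in replicate 1 and 240788 in replicate 2. The pair inside the gene had signals of 10.3 and 8.88.

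Maea (chr5:33335509-33373296, plus strand) encodes the erythroblast macrophage protein, which serves in attachment between both cell types and is also a subunit of the CTLH ubiquitin ligase. It was the sole gene of the 9 with an optimal summit inside its own body. That peak, at chr5:33344073-33344412 in an intron 8058 bp from the nearest TSS, had a signal of 17.9 and optimal rank 14555, below the median. It ranked 19194 in replicate 1 and 16806 in replicate 2 and was in the conservative list. As its sequence shows, GAGGAA stood 9 bp to the left of the summit and GATA 8 bp to the right, and the GATA letters formed part of a composite of an E-box and GATA site (CTG, 8 or 9 bases, GATA), the arrangement bound by TAL1 and GATA1 together. MAEA is made in erythroblasts as well as in macrophages. The pooled list added 2 weaker peaks upstream, with signals of 10.8 and 9.80.

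Adgre1 (chr17:57358691-57483527, plus strand), an adhesion G protein-coupled receptor that marks mouse macrophages, had no optimal peak within 50 kb. Its nearest, 68226 bp upstream, lay in an intron of Vav1, with a signal of 19.4 and ranks of 18056 in replicate 1 and 37239 in replicate 2. The pooled list held 1 peak in its window, 22712 bp upstream, with a signal of 12.3 and pooled rank 24271. Neither library had a summit within 100 bp of it, though the nearest in replicate 2 was 103 bp away. In replicate 1 the nearest was 3384 bp away.

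Csf1r, the receptor for CSF1 and IL34 on which most tissue macrophages depend (chr18:61100598-61132149, plus strand), had 1 optimal peak near the edge of its window. The summit lay 49256 bp from the nearest TSS of Csf1r, an internal one, and more than 50 kb from the start of the gene. It was in an intron of Hmgxb3, 4670 bp from that gene's TSS, with a signal of 29.1 and optimal rank 10743. It ranked 7434 in replicate 2, and the nearest summit in replicate 1 was 4710 bp away. It was not in the conservative list. The next optimal peak, just outside the window at 53984 bp and 58 bp from the Hmgxb3 TSS, had a signal of 30.8 and a summit in both libraries, ranked 20381 in replicate 1 and 7354 in replicate 2. Closer to Csf1r, the pooled list held a peak 22783 bp upstream in an intron of the neighbouring receptor gene Pdgfrb (signal 11.3, pooled rank 27693), which ranked 15527 in replicate 1. A peak 1103 bp upstream of an internal TSS of Csf1r had a signal of 8.92, pooled rank 48353 and no summit within 100 bp in either library. Within 50 kb of Csf1r, none of these 3 peaks had a summit within 100 bp in both libraries.

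The genes of engulfment and digestion differed from each other. Mertk (chr2:128698956-128802894, plus strand), the receptor tyrosine kinase by which macrophages take up expelled nuclei, had its nearest optimal peak 154472 bp away, with a signal of 15.7. Of the 2 pooled peaks in its window, one (signal 14.4) was 348 bp from the TSS of Anapc1. The other lay in an intron of Mertk itself, 17702 bp upstream of the nearest Mertk TSS. It was 94 bp from the TSS of Gm14011, an overlapping gene that is not annotated as protein-coding. This peak had a signal of 8.86, pooled rank 49341, rank 17469 in replicate 2 and no replicate 1 summit within 100 bp. That intronic peak held 2 GAGGAA motifs, at 2 and 36 bp from the summit.

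Dnase2a (chr8:84908560-84922915, plus strand) encodes the lysosomal nuclease that degrades the DNA of engulfed nuclei. Its TSS lies 6632 bp from that of Klf1, the erythroid Krüppel-like factor, so the same window holds the promoters of a macrophage digestive enzyme and of an erythroid regulator. The strong peaks were on the Klf1 side. The summit 7266 bp upstream of Dnase2a, at chr8:84901199-84901385, was 634 bp upstream of Klf1, with a signal of 187.2, optimal rank 1435, and ranks of 1574 in replicate 1 and 1343 in replicate 2. A second summit, 14 bp from the Klf1 TSS at chr8:84901744-84902083, had a signal of 106.6 and ranked 2421 in replicate 1 and 4440 in replicate 2. Another, in a coding exon of Klf1, had a signal of 27.8 and ranked 11024 in replicate 1 and 14980 in replicate 2. The printed sequence of the first holds 2 GATA motifs, at 0 and 29 bp from the summit, and GAGGAA.

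At the Dnase2a TSS itself EP300 peaks were weak. The summit 96 bp upstream, at chr8:84908294-84908633, had a signal of 8.21, with optimal rank 16661 and pooled rank 63401. The summit 297 bp upstream, at chr8:84908093-84908432, had a signal of 13.1 and optimal rank 16020. Replicate 1 had a summit within 100 bp of the peak at 297 bp, ranked 15355, and replicate 2 of the peak at 96 bp, ranked 21769, so neither peak had one in both libraries. They lay 201 bp apart and may be counted as 1 place. Neither held the GATA motif with its flanking letters. The one at 297 bp held the composite of an E-box and GATA site, the one at 96 bp held the IRF motif printed in capitals, and 66.7% of the bases around the one at 297 bp were repeat-masked. In the optimal list, then, the peaks by Klf1 had signals of 187.2, 106.6 and 27.8, and those by Dnase2a 13.1 and 8.21. The pooled list added 10 peaks to the window. The strongest of them, 1305 bp upstream of Dnase2a, had a signal of 17.5 and pooled rank 16850. It ranked 13600 in replicate 2 and had no replicate 1 summit within 100 bp. Also among them was one 797 bp downstream of a Dnase2a TSS, with a signal of 15.9. That one ranked 37015 in replicate 1 and 15951 in replicate 2. Another, 212 bp downstream of a TSS, had a signal of 15.6 and ranks of 67086 in replicate 1 and 17751 in replicate 2. None of the 38 further pooled peaks around the 9 genes was nearest to a gene of the erythroid list.

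Cd163 (chr6:124304656-124330527, plus strand), the scavenger receptor for haemoglobin bound to haptoglobin, had no optimal peak within 50 kb, and no other coding gene had a TSS there. The nearest optimal peak stood just beyond, 55294 bp downstream of an internal TSS, in intergenic sequence. Its signal of 79.6 was above the optimal median, and it ranked 4043 in replicate 1 and 4792 in replicate 2. The single pooled peak in the window, 22002 bp upstream, had a signal of 9.62 and pooled rank 38938, and ranked 21690 in replicate 1.

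Cd68 (chr11:69664213-69666153, minus strand), a lysosomal membrane glycoprotein of macrophages, lies in the most crowded of the 9 windows, with 10 other coding genes within 50 kb. Its 3 optimal peaks were all upstream and nearer to other genes. The one 26627 bp upstream was in an intron of Tnfsf12, a TNF family ligand gene, and had a signal of 17.0. Those at 39832 and 44148 bp were intergenic beside Tnfsfm13 and had signals of 14.5 and 33.1. The peak of 33.1 ranked 9537 in replicate 1 and 12474 in replicate 2. That of 14.5 ranked 25192 in replicate 1 and 37729 in replicate 2, was not in the conservative list and was 75.6% repeat-masked. That of 17.0 ranked 17394 in replicate 2, with the nearest replicate 1 summit 130 bp away. All 3 held a GATA motif. At Cd68 itself the pooled list had a peak 431 bp upstream of the TSS with a signal of 10.6 and pooled rank 31352, and neither library had a summit within 100 bp. Stronger pooled peaks in the window lay at the starts of housekeeping genes, 36 bp from the TSS of Mpdu1 (25.2) and 6 bp from that of Eif4a1 (19.0).

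**Figure D2:**
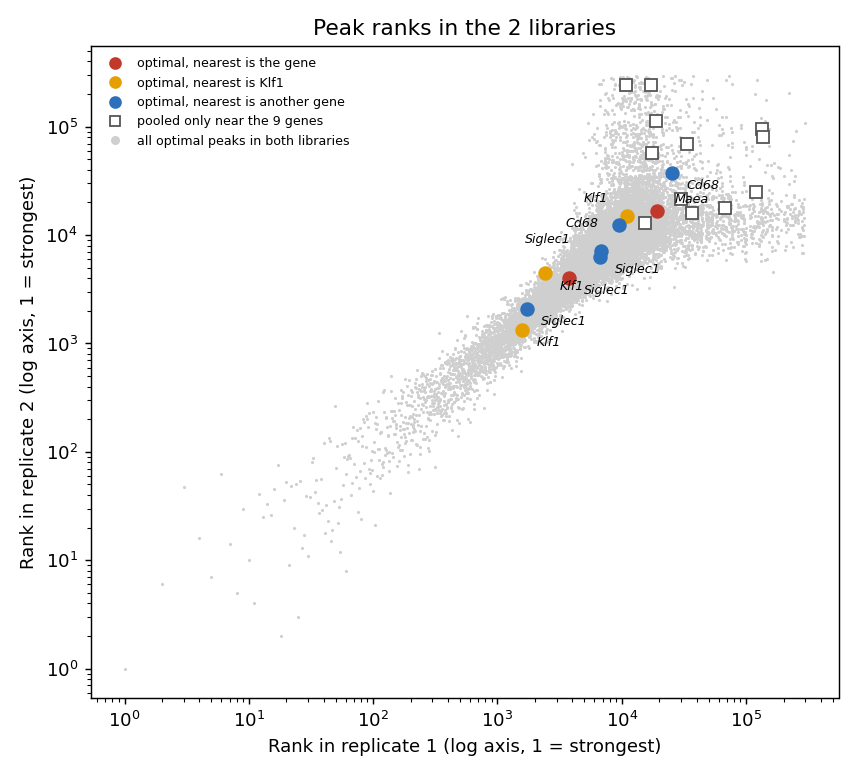
Rank of each peak in replicate 1 (x axis) and replicate 2 (y axis), both on log axes where 1 is the strongest, for peaks with a summit within 100 bp in both libraries. The 10 optimal peaks near the 9 genes are in colour, the 12 further pooled peaks are open squares, and all 14360 optimal peaks seen in both libraries are grey; the coloured points lie along the grey band, while most squares lie at its weak end.

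The 14 optimal peaks near the island genes can be set beside the optimal list as a whole. Their median signal was 31.1, against 38.5 over all optimal peaks, and 6 of the 14 were above that median: the 4 in the Siglec1 window and the stronger pair by Klf1. A summit within 100 bp was present in both libraries for 10 of 14 (71.4%), against 84.3% of the optimal peaks on the chromosomes (14360 of 17043). For the 14 peaks that count was 7 with summits within 25 bp and 13 within 250 bp. In the conservative list were 12 of 14 (85.7%), against 78.4% of the optimal list (13376 peaks). With 14 peaks, 1 peak more or less moves such a share by several percentage points, and no test was made. By place, 6 lay in introns, 7 in intergenic sequence and 1 in a coding exon, and 4 of the 14 were within 1 kb of a TSS.

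Distances were also given per gene. The nearest optimal summit was at a median of 49256 bp for the 9 genes, against 40865 bp for all coding genes. It was 96 bp for Dnase2a, 8058 for Maea, 9845 for Siglec1, 26627 for Cd68 and 49256 for Csf1r, followed by 55294 for Cd163, 68226 for Adgre1, 154472 for Mertk and 181695 for Vcam1. Counted from an internal TSS in each case, Csf1r and Cd163 lie just inside and just outside the 50 kb window. Within 20 kb, 3 of the 9 genes had an optimal peak, against 38.6% of coding genes. Among genes with a peak in the 50 kb window, the best rank was at a median of 9719 for the 5 island genes, against 4694 for all such coding genes, and the best signal was 33.1 against 73.5.

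**Figure D3:**
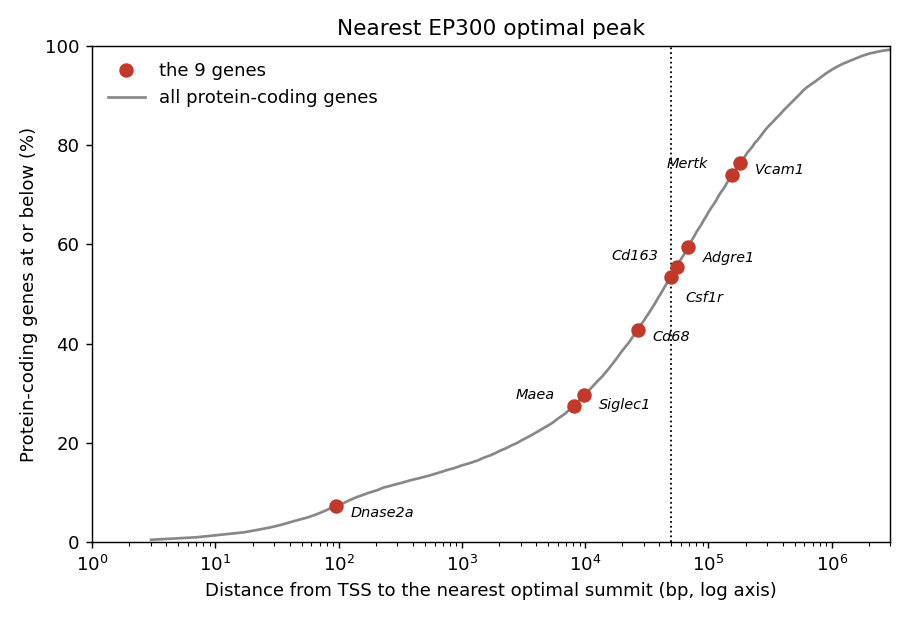
Share of genes (y axis, %) whose nearest optimal summit lies within the distance on the x axis (bp, log axis), drawn for all 21755 protein-coding genes as a line, with each of the 9 island genes marked at its own distance. Dnase2a stands at the near end at 96 bp and Vcam1 and Mertk at the far end at 181695 and 154472 bp.

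Weaker peaks were present in every window. All 9 genes had at least 1 further pooled peak ranked up to 50000, as had 75.3% of coding genes, and the median number was 3 for the 9 genes, against 2 for all coding genes. Of these 38 peaks, 20 were nearest to the island gene, 12 had a summit within 100 bp in both libraries, and 3 ranked within the first 50000 of each library: the peak 8310 bp upstream of Siglec1, the one 797 bp downstream of a Dnase2a TSS, and one 40501 bp downstream of Siglec1 near Gfra4. A further 14 reached that rank in replicate 1 alone, 10 in replicate 2 alone and 11 in neither. The signal at pooled rank 50000 was 8.83. Adgre1, Vcam1, Cd163 and Mertk thus had pooled peaks, with signals no higher than 14.4, and no peak within 50 kb in the optimal or conservative lists, among as many top pooled peaks, or among as many top peaks of either library.

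Motif shares of the 14 peaks lay close to those of the optimal list for GATA and AP-1 and further from them for others; none was tested. Within 100 bp of the summit, a GATA motif was present in 11 of 14 (78.6%), against 74.7% of all optimal peaks. The E-box and GATA composite was in 7 (50%, against 29.1%) and GAGGAA in 4 (28.6%, against 17.8%). All 4 with GAGGAA also held a GATA motif: the peak in Maea, the one upstream of Klf1, the one in Hspa12b and the one in Tnfsf12. CACCC, the core of sites for KLF1 and its relatives, was in 3 (21.4%, against 44.7%), and the E-box CANNTG in 12 (85.7%, against 68.7%). Most of the 14 lay nearer to other genes. Of the 4 nearest to an island gene, 2 held GATA, 2 the composite, 1 GAGGAA, 0 CACCC and 4 the E-box. TTGCNNAA, a core of C/EBP sites, was in 0 of the 14, against 8.06% of optimal peaks, while 7 of the 38 further pooled peaks held it (18.4%, against 9.85% of all further pooled peaks). The RUNX motif TGTGGT was in 2 (14.3%, against 17.9%), AP-1 in 1 (7.14%, against 7.58%) and the IRF motif in 1 (7.14%, against 1.82%). Neither the NFE2 or BACH type, which is AP-1 with TGC before it, nor the NF-kappaB type was in any. Over all optimal peaks their shares were 1.78% and 0.857%. In the further pooled peaks GATA was in 13 of 38 (34.2%, against 45.2% of all further pooled peaks) and GAGGAA in 6 (15.8%, against 18.7%), so the ones printed or named with GAGGAA do not stand for the 38. Motifs overlap in part: a composite always contains GATA letters, and the NFE2 or BACH type contains AP-1. A match is a description of letters and not of a bound factor.

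**Figure D4:**
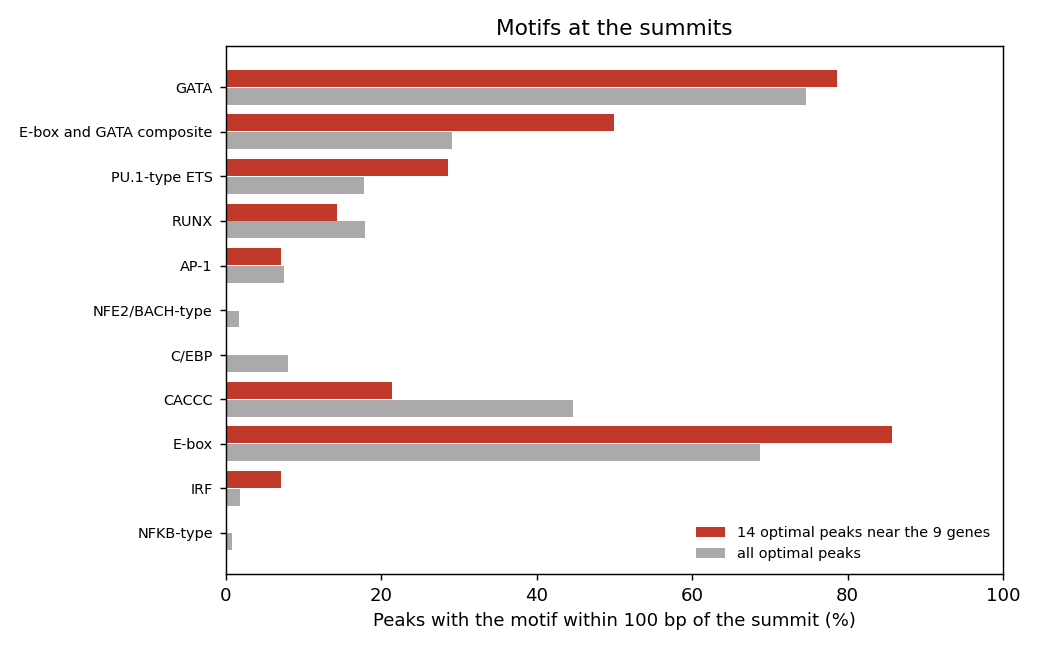
Percentage of peaks (x axis) with each of 11 motifs within 100 bp of the summit, for the 14 optimal peaks near the 9 genes (upper bars) and all 17043 optimal peaks on the chromosomes (lower bars). GATA reaches 78.6% near the 9 genes and 74.7% over all optimal peaks, the composite 50% near the genes and 29.1% over all, and CACCC 21.4% near the genes and 44.7% over all.

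Promoter sequences from RefSeq (GRCm38.p6, 250 bases before to 50 after the start) were matched for 4 of the 9 genes. That of Cd68 held GAGGAA at 225 bases before the start and 29 bases after it, AP-1 at 149 and 24 bases before it and the C/EBP core at 43 before it. Of all 32619 promoters in that table, 28.2% held GAGGAA, 7.85% AP-1 and 10.9% the C/EBP core. The promoters of Cd163, Mertk and Dnase2a held none of these 3. No optimal peak lay within 1 kb of the Cd68, Cd163 or Mertk TSSs.

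Genes that work with the island macrophage genes, or were grouped with them by kind, were covered in 10 related lists. The erythroid list stood at one end, with an optimal peak within 50 kb of all 53 annotated genes, a median of 7 peaks each and a median nearest summit at 82 bp; the strongest in a window was that of Gfi1b (570.3), 13049 bp from its TSS. The alpha-globin genes Hba-a1 and Hba-x shared a peak of 544.1 that was nearest to Nprl3, 37702 bp from Hba-a1 and 30591 bp from Hba-x. Hbb-bs shared with Hbb-y and Hbb-bh1 a peak of 525.5 that was nearest to Olfr66, 49205 bp from Hbb-bs. Adhesion partners on either cell type differed: some had peaks close by and others had none within 50 kb. Of 16 genes listed as adhesion partners, 13 had one within 50 kb (81.2%, against 53.7% of all coding genes). Themselves nearest to a peak were 10 of the 16, where 29.8% of all coding genes were. The list also holds Add1, Epb42, Palld, Rb1 and Ccnd2, which are not adhesion receptors. Each of these had a peak and was nearest to one, and Epb42 and Icam4 are on the erythroid list too. Itga4 (322.8) and Itgb1 (214.2), which encode the integrin that binds VCAM1, had peaks 3529 and 3046 bp from their TSSs, and Epb42 (182.5), of the red cell membrane, at 3 bp; that of 220.9 for Spn was nearest to Cd2bp2. Efnb2 and Itgav had none. Both integrin genes thus had strong peaks, where Vcam1 had none in the optimal list within 50 kb.

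The partners of MAEA in the CTLH ligase had peaks in 9 of 11 cases (81.8%, against 53.7% of all coding genes). Nearest to a peak were 8 of the 11, where 29.8% of all coding genes were. Ranbp10 (462.3), Wdr26 (343.2), Gid8 (312.9) and Ube2h (234.6) all stood far above Maea's 17.9, while Gid4 and Ypel5 had none. Of 12 heme and iron recycling genes 11 had a peak (91.7%, against the same 53.7%). They were led by the ferritin gene Fth1 (206.8), the iron exporter gene Slc40a1 (197.9, 83 bp from its TSS), the biliverdin reductase gene Blvrb (144.1) and Ftl1 (119.2, nearest to Nucb1), and Cp had none. Genes of CSF1 receptor ligands and signalling had peaks in 11 of 13 cases (84.6%, against 53.7%). The strongest were those of Pik3cg (430.7), Inpp5d (312.4), Ptpn6 (99.1, nearest to Lpcat3) and Il34 (77.8, nearest to Sf3b3). Csf1, the main ligand gene, had none.

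The remaining lists ran between 50% and 90.0%, each to be read against 53.7% of all coding genes. Other macrophage surface and secreted proteins had a peak in 14 of 24 cases (58.3%, against 53.7% of coding genes), and 4 of the 24 were nearest to one, where 29.8% of all coding genes were. Of the 4 with the strongest peaks, that of Ctss (412.0) was nearest to Ctss, a lysosomal protease gene, whereas those of Fcer1g (320.6), Cd14 (227.6) and Cx3cr1 (206.7) were nearest to Ppox, Hars and Slc25a38; the summit by Ppox, a gene of heme synthesis, lay 46673 bp from the Fcer1g TSS. Cd5l and Clec4f had none. Macrophage transcription factors had peaks in 11 of 16 cases (68.8%), with Ikzf1 (266.2), Zeb2 (250.8) and Rxra (222.2) nearest to their own peaks, Id3 (122.0) beside E2f2, and Irf8 and Maf with none. Engulfment genes had peaks in 9 of 18 (50%), among them Cd47 (418.9), whose product on red cells restrains uptake, Elmo1 (315.0) and Cd36 (239.2), with none at Adgrb1 and Dock1. DNA nucleases had them in 9 of 10 (90.0%), led by Pld3 (126.7), Dnase2b (70.2, nearest to Uox), Endog (62.8, nearest to Spout1) and Dnase1 (54.3), with none at Pld4. Only 2 of the 10 were nearest to a peak, against 29.8% of all coding genes. The list of scavenger and sialic acid binding relatives also holds genes of neither class, among them Madcam1, Lamp1, Flt3 and Kit, which is on the erythroid list too. Of its 21 annotated genes 13 had a peak (61.9%), with none at Cd22 and Cd6. The strongest were those of Madcam1 (226.2, nearest to Bsg), Lamp1 (222.0, nearest to Grtp1), Flt3 (164.2) and Cd163l1 (122.9, nearest to Olfr524).

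**Figure D5:**
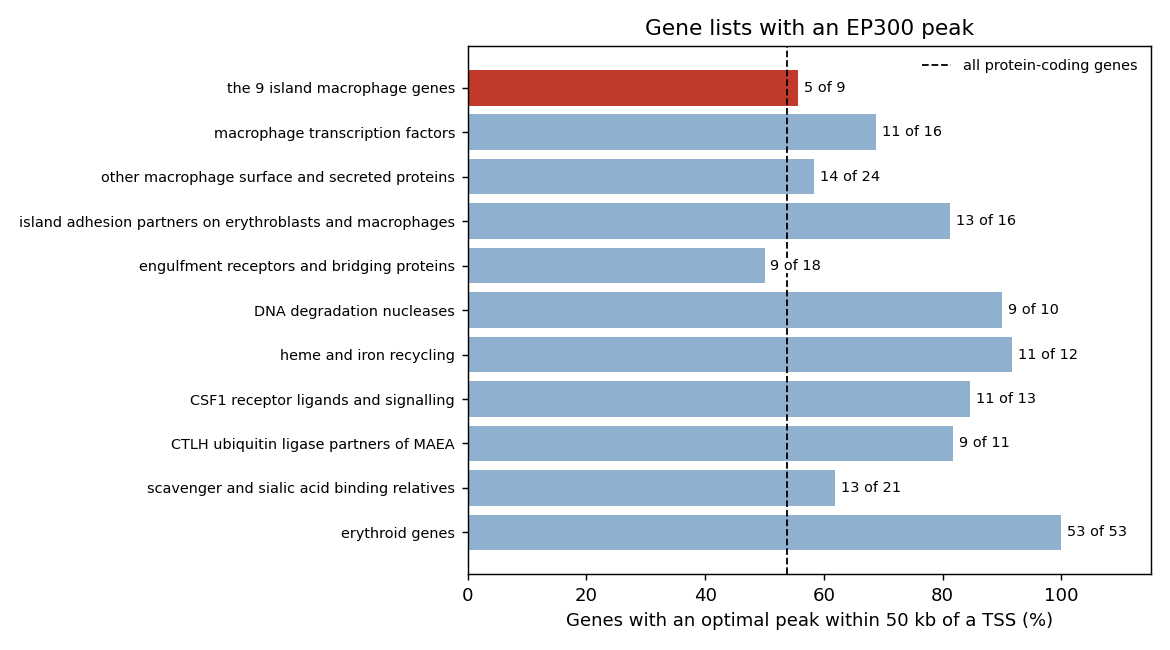
Percentage of genes with an optimal peak within 50 kb of a TSS (x axis), with the count beside each bar, for the 9 island macrophage genes and the 10 related lists; the dashed line is the 53.7% of all protein-coding genes. The island genes (5 of 9) and engulfment genes (9 of 18) lie near the line, and erythroid genes are at 100%.

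Lists of cell type markers were also described, though they overlap with the lists above and are no independent check of the tissue. An optimal peak within 50 kb was present for 11 of 24 macrophage markers (45.8%), against 53.7% of all coding genes. These 24 include 6 of the 9 island genes, and the rest are on the list of other macrophage surface and secreted proteins. Such a peak was present for 10 of 10 erythroid (100%), 6 of 8 hepatocyte (75.0%) and 5 of 8 endothelial markers (62.5%). The erythroid markers are all on the erythroid list, where every annotated gene had a peak, so their share repeats that result. Of these, 1 macrophage marker, 10 erythroid, 4 hepatocyte and 3 endothelial markers were themselves nearest to an optimal peak, as were 29.8% of all coding genes. The macrophage one was Siglec1. With 8 genes in each, the hepatocyte and endothelial shares are coarse, and none was tested.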

How the data were processed

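The deposited files are peak lists on mm10. Per the deposited file listings, the filtered alignments of a library and 1 control gave its own list, and the alignments of both with both controls gave the pooled one. The optimal and conservative lists derive from these and 1 more file. The aligner, the caller and its threshold were not given in the sources used here. Each peak's signal is the authors' deposited value per peak. Read depth is unknown, so no precision beyond counts can be stated.

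Summits were set on GENCODE vM21 and the GRCm38 sequence with Python 3.11.15, pandas 2.3.3 and numpy 2.4.6; figures used matplotlib 3.10.9. Entries of the pooled list ranked up to 50000 by signal and absent from the optimal list were counted apart. A peak was matched to the best ranked summit of a library within 100 bp. Motif searches covered both strands and 100 bp on either side of a summit. Peaks on unplaced contigs were left out of shares on chromosomes. The scripts were tested on simulated data.

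The 9 genes and the related lists were chosen with earlier results of these data known. No test was made, as there is 1 group. Named are all 9 genes, the genes nearest to or holding each optimal peak near them, and, per related list, the top 4 by peak signal with at most 2, in alphabetical order, that had none. Genes named to place other peaks were picked after their values were seen. Alternatives were other lists, windows, ranks and motif windows. The annotation held no entry named Scart1 or Ahsp, which stood on related lists. Some genes that the naming rule took are left out of the text.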

Additional observations from a re-analysis of the deposited data

How the results depend on the processing

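The counts depended mostly on the window. Against 5 genes and 14 optimal peaks as reported, a window of 5 kb left 1 gene (23.5% of coding genes) and 2 peaks. One of 20 kb left 3 genes (38.6% of coding genes) and 7 peaks. A window of 100 kb gave 7 genes (66.5% of coding genes) and 47 peaks. The conservative list gave 4 genes (52.1% of coding genes), without Csf1r, and 18 peaks. Peaks above the median signal left 2 genes (39.1% of coding genes), Siglec1 and Dnase2a, and 6 peaks, and giving each peak to its nearest gene left 3 genes. Using 1 library at a time gave 5 genes both times and 15 to 17 peaks. Of coding genes, 55.1% had a peak with replicate 1 alone and 54.8% with replicate 2 alone. The 38 further pooled peaks became 16 with ranks up to 25000, 67 with ranks up to 100000 and 24 within 20 kb. With 50 bp on either side of the summit, the RUNX motif was in 0, the IRF motif in 0 and the E-box in 7 peaks; the IRF motif was also in 0 without peaks within 500 bp of a stronger one. Within 20 kb, macrophage transcription factors with a peak numbered 6, other macrophage products 8 and DNA nucleases 5. Smaller windows and ranks hold fewer peaks by construction. Of 92 alternative values in all, 74 were within 1.5 times the reported count and 18 were not. No paired analysis was possible because the libraries form 1 group. Read depth, which limits weak peaks, is unknown.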

Other observations

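The conservative list held 6 peaks within 50 kb of the 9 genes that were not in the optimal list. Those near Maea were the weakest, a pair beside Uvssa 6641 and 6859 bp from a Maea TSS with signals of 6.61 and 5.59 and pooled ranks of 139102 and 243705. The pair near Cd68 lay at Mpdu1 and Eif4a1 and had signals of 25.2 and 19.0, above those of Dnase2a's own optimal peaks. The pair near Siglec1 had signals of 28.6 and 13.6.

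The libraries differed in how many of their first 50000 peaks lay within 50 kb of some genes. These counts are small. Over all coding genes the median was 3 in either library, and over the 9 genes it was 4 in replicate 1 and 3 in replicate 2. Adgre1 had 0 in replicate 1 and 3 in replicate 2, Vcam1 6 and 1, and Cd68 11 and 6, in the same order, while Siglec1 had 10 and 9, Dnase2a 13 and 15, and Maea 4 in each. The cause was not tested.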
